A study of Homo sapiens with 5 samples.

Results

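Protein synthesis factors are encoded by 54 of the 8127 genes tested in this comparison of HEK293T cells. They were chosen by name, with earlier results of these data known. Their current symbols start with EIF1 to EIF6, EEF1 or EEF2, or read ETF1, GSPT1 or GSPT2. The eIF2 kinase genes (EIF2AK) and old EIF2C names of Argonaute genes were left out. Each gene was read from its brightest probe by the mean of the 5 arrays, and 42 of the genes had a single probe. The set holds initiation, elongation and release factors together with some proteins that regulate or modify them, such as the eIF4E-binding proteins, the kinase EEF2K and the methyltransferases EEF1AKMT1, EEF1AKMT3 and EEF2KMT.

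HEK293T cells are an established line from human embryonic kidney with the simian virus large T antigen. The miR-182 pull-down has 2 arrays of RNA from cells transfected with biotin-labelled miR-182-5p duplex and isolated on streptavidin beads. The mock has 3 arrays of RNA from mock-transfected cells of the same line, labelled as having no pull-down. Cells were harvested 24 h after transfection. The bead step stands in the protocol of all 5 arrays, but going by the mock's label the effects of bead isolation and of the microRNA cannot be told apart. The labels do not tie the arrays to separate cultures. The p-values then measure only array-to-array spread, possibly technical. The comparison asks which transcripts associate with miR-182. Of 10 genes listed as expressed in this line, 7 were measured. VIM, CDH2 and UCHL1 gave clear signal on every array, INA and NEFM were dim, NEFL lay near the lower limit and GATA3 at it. CDH2 and UCHL1 were lower in the pull-down, with log2 differences of -0.95 and -2.24 (limma adjusted p = 0.00438 and 0.00276). COL1A1, the 1 measured gene of 13 that mark other cell types, also lay at the lower limit.

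A eukaryotic mRNA is recruited through its cap by eIF4F, which joins the cap-binding protein eIF4E, the scaffold eIF4G and the helicase eIF4A. The small ribosomal subunit carries eIF1, eIF1A, eIF3 and eIF2 with the initiator tRNA to it, and scans to the start codon. There eIF5 triggers GTP hydrolysis by eIF2, eIF5B joins the large subunit, and eIF2B recharges eIF2 for the next round. Elongation uses eEF1A to bring in aminoacyl-tRNA and eEF2 to move the ribosome along, and eRF1 and eRF3 (ETF1 and the GSPT proteins) release the finished chain. A microRNA, held by an Argonaute protein, pairs with target mRNAs mainly through its seed, bases 2 to 8. The mature miR-182-5p is shown because it is the molecule that was tagged, with the seed in capitals (RefSeq, GRCh38.p14, chr7:129770447-129770470, minus strand).
hsa-miR-182-5p: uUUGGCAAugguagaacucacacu

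Many mRNAs of the translation machinery begin with a terminal oligopyrimidine (TOP) tract, a C at the cap followed by an unbroken run of C and T, through which their translation is tied to mTOR signalling. RefSeq start sites were available for 42 of the 54 genes. A tract of at least 5 bases that begins with C at a listed start, read on the gene's own strand, was present for 12 of them (28.6%), and for 554 of the 6829 tested genes with a start (8.11%). Of all 35116 start windows in the table, 4.07% held it. These windows run from 20 bases before the start through the first 20 transcribed bases, with the tract in capitals. The first 8 genes have a tract, and EIF1B, EIF4A3 and EIF4EBP2, which are among the largest differences, have none, nor does EEF1G, which is counted among TOP genes (RefSeq, GRCh38.p14).
EIF4B (chr12:53006436-53006475, plus strand): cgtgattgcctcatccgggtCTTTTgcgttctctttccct
EEF1B2 (chr2:206159875-206159914, plus strand): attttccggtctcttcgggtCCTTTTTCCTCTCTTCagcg
EIF3K (chr19:38619168-38619207, plus strand): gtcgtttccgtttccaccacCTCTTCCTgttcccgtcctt
EIF2D (chr1:206612446-206612485, minus strand): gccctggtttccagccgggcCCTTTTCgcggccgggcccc
EEF1A1 (chr6:73521013-73521052, minus strand): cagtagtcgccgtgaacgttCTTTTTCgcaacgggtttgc
EEF2 (chr19:3985444-3985483, minus strand): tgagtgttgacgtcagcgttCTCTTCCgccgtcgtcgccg
EIF3F (chr11:7987317-7987356, plus strand): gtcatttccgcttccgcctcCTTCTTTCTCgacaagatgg
EIF3D (chr22:36529147-36529186, minus strand): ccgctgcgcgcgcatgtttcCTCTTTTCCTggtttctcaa
EIF1B (chr3:40309687-40309726, plus strand): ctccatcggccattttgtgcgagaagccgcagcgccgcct
EIF4A3 (chr17:80147109-80147148, minus strand): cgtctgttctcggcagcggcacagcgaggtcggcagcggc
EIF4EBP2 (chr10:70404125-70404164, plus strand): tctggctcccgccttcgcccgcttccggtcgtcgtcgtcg
EEF1G (chr11:62573872-62573911, minus strand): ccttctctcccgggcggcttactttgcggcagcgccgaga

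Translation factor genes went both ways in the pull-down. Every adjusted p given is from limma, corrected by Benjamini-Hochberg over all genes tested, and SE is the standard error of the log2 difference from the same fit. Of the 54, 13 (24.1%) were higher and 10 (18.5%) lower at an adjusted p under 0.05, and 31 were not called. Over all 8127 genes tested, 20.2% were higher and 15.0% lower, so these shares lie near the background and are no result about the set. At 2-fold or more, 4 were higher and 5 lower, against 5.28% and 5.12% of all genes. The median log2 difference was 0.021, beside 0.017 over all genes, and the members' differences ran from -2.05 to 1.88. The sign of both medians changed with the scaling. After median centring that of the members was -0.020 and that of all genes -0.024, and after quantile normalization they were -0.027 and -0.0026. Counting only genes whose mean over the arrays reached 9 (log2), 11 of 44 members were higher and 10 lower, against 21.5% and 24.9% of the 3831 genes of that level. All differences here are pull-down minus mock in the authors' deposited log2 values. In bulk RNA of this kind fewer cells and less RNA per cell cannot be told apart. As one group is a pull-down, a difference need not be one of expression in the cells.

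Single arrays weighed on these counts, as on those over all genes. Without mock array 2 the number of higher members fell to 5 and that of lower members to 6. In that fit 12.2% of all genes were higher and 10.1% lower, against 20.2% and 15.0% on all arrays. Of the 23 called genes, 10 kept their call with each of the 5 arrays left out in turn. They were EIF4EBP2, EIF3H, EIF4B and EIF3E, higher, and EIF5A, EIF1B, EIF4E2, EIF4A3, EIF1 and EEF1B2, lower. These 10 also kept it under every scaling, probe rule, filter and variance model tried. The share of all called genes that kept theirs was not counted, so this is no result about the set. With genes of a mean under 9 left out, 24.9% of the genes kept were higher and 29.1% lower. In the fit on all genes, 21.5% and 24.9% of those same genes were. With an intensity trend in the variance and a robust prior, 26.4% of all genes were higher and 18.8% lower. Below, the intensity trend stands for both together. Both settings thus call a larger share of genes, and a call gained under them leaves the difference itself unchanged. Leaving out an array also leaves fewer degrees of freedom. For each other called gene, the arrays without which its call was lost are named, each followed in brackets by the adjusted p from limma without that array.

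**Figure D1:**
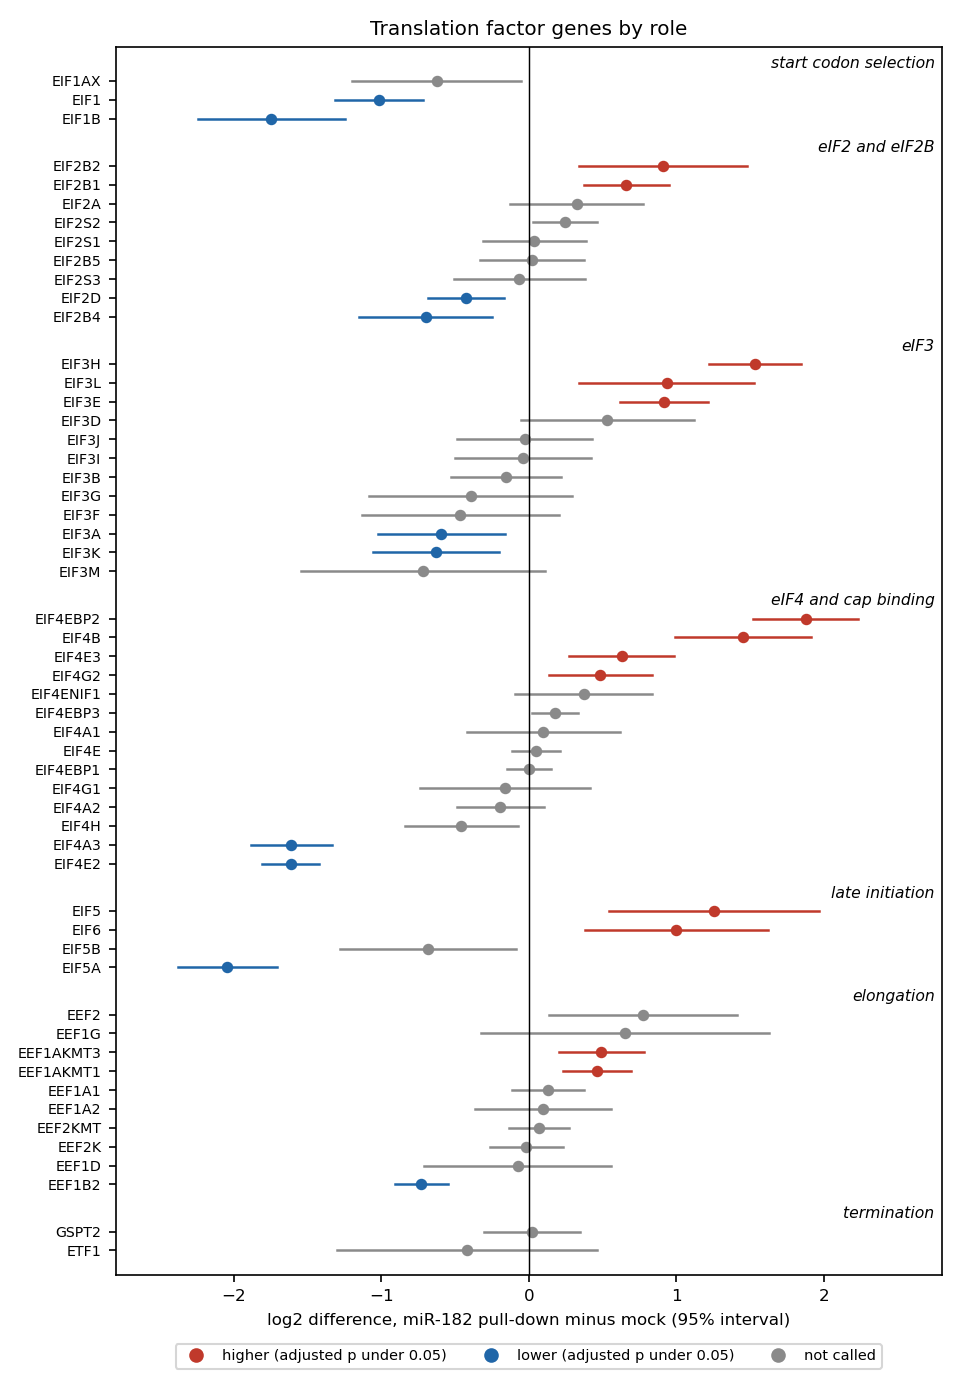
Log2 difference (pull-down minus mock, horizontal axis) with its 95% interval for each of the 54 translation factor genes, grouped by role. Roles were read from the symbols, which puts EIF5A under late initiation. Red genes were higher, blue lower and grey not called at an adjusted p under 0.05. EIF4EBP2 lies farthest right at 1.88 and EIF5A farthest left at -2.05, and every role with more than 3 genes holds both red and blue points.

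The start codon factors EIF1 and EIF1B, close relatives that keep the scanning ribosome from starting at wrong codons, were both lower. EIF1B was at 9.17 and 9.22 in pull-down arrays 1 and 2, against 10.70, 11.28 and 10.85 in mock arrays 1, 2 and 3. Both pull-down arrays lay clearly under the lowest mock array, and the difference was -1.75 (SE 0.19), or 3.35-fold lower (limma adjusted p = 0.00565). EIF1 was at 11.68 and 11.35 in the pull-down, against 12.53, 12.52 and 12.54 in the mock. The mock arrays were nearly equal and the groups did not overlap, with a log2 difference of -1.02 (SE 0.11, limma adjusted p = 0.00581). EIF1AX, which promotes scanning with EIF1, had 10.54 and 9.85 in the pull-down, against 10.77, 10.90 and 10.80 in the mock. Its groups did not overlap either, but pull-down array 2 was well under array 1 and the difference of -0.63 (SE 0.22) was not called (limma adjusted p = 0.0885). It was called without pull-down array 1 (log2 difference -0.97, limma adjusted p = 0.0215), and its difference was -0.28 without pull-down array 2. It was also called with genes of a mean under 9 left out (limma adjusted p = 0.0150) and with an intensity trend in the variance (0.0443), and its second probe gave -0.56. Probes for copies as close as EIF1 and EIF1B can share signal, which was not tested.

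In eIF2B, the exchange factor that recharges eIF2, subunits differed in direction. EIF2B2, the beta subunit, was 1.88-fold higher, and EIF2B1, the alpha subunit, 1.58-fold higher, while EIF2B4, the delta subunit, was 1.63-fold lower. EIF2B2 had 11.10 and 11.78 in the pull-down, against 10.60, 10.47 and 10.53 in the mock. Pull-down array 2 was the highest value by a wide margin, and the log2 difference was 0.91 (SE 0.21, limma adjusted p = 0.0333). EIF2B1 had 10.18 and 10.25 in the pull-down, against 9.44, 9.50 and 9.73 in the mock. The pull-down arrays were close together and lay above all mock arrays, with a log2 difference of 0.66 (SE 0.11, limma adjusted p = 0.0136). EIF2B4 had 10.05 and 10.51 in the pull-down, against 10.93, 11.14 and 10.87 in the mock. The groups did not overlap, and the log2 difference was -0.70 (SE 0.17, limma adjusted p = 0.0360), with -0.81 at its second probe. EIF2B5, the catalytic epsilon subunit, had overlapping groups and a difference of 0.022 (SE 0.13). The calls of these subunits ended when single arrays were left out. For EIF2B2 the limma adjusted p was over 0.05 without mock array 1 (0.0869), 2 (0.101) or 3 (0.0745), and its difference without pull-down array 2 was 0.57. For EIF2B1 this held without pull-down array 1 (0.0619), 2 (0.0687) or mock array 2 (0.0515). For EIF2B4 it held without pull-down array 1 (0.106), mock array 1 (0.0913), 2 (0.0985) or 3 (0.0604).

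The 3 subunits of eIF2 itself, the GTPase that carries the initiator tRNA, were not called. Their differences were 0.036 (SE 0.13) for EIF2S1, the alpha subunit that stress kinases phosphorylate, 0.25 (SE 0.082) for EIF2S2 and -0.064 (SE 0.17) for EIF2S3. The 95% interval of EIF2S1 ran from -0.31 to 0.38 and that of EIF2S3 from -0.51 to 0.38, so a change of up to those sizes cannot be told from none with these arrays. EIF2S2 had 8.75 and 8.62 in the pull-down, against 8.49, 8.34 and 8.48 in the mock. Its groups did not overlap, with a limma adjusted p of 0.0796. EIF2D, a factor that can deliver tRNA outside the main route and is no subunit of eIF2, was lower at 8.89 and 8.90 in the pull-down, against 9.44, 9.35 and 9.17 in the mock. The pull-down arrays were nearly equal and below all mock arrays, and the log2 difference was -0.43 (SE 0.097, limma adjusted p = 0.0304), a call lost without pull-down array 1 (0.119), 2 (0.114), mock array 1 (0.0695) or 2 (0.0925). It was also lost with genes of a mean under 9 left out (limma adjusted p = 0.0727) and with an intensity trend (0.0587). EIF2A, another initiator tRNA-binding protein outside eIF2, had overlapping groups and a difference of 0.32 (SE 0.17). It was called without mock array 1 (log2 difference 0.47, limma adjusted p = 0.0402).

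The scaffold complex eIF3 keeps the small subunit ready for mRNA, and 12 of its subunit genes were measured. EIF3H, EIF3L and EIF3E were higher, EIF3A and EIF3K lower, and the other 7 were not called. Over all 8127 genes tested, 20.2% were higher and 15.0% lower, so these counts are no result about the complex. The median log2 difference of the 12 was -0.098, beside 0.017 over all genes. EIF3H had 12.04 and 12.37 in pull-down arrays 1 and 2, against 10.67, 10.74 and 10.61 in mock arrays 1, 2 and 3. Every pull-down array was above every mock array, and the difference of 1.53 (SE 0.12), or 2.89-fold, was the second largest positive one of the set (limma adjusted p = 0.00346). EIF3E had 14.21 and 14.22 in the pull-down, against 13.48, 13.16 and 13.25 in the mock. The pull-down arrays were almost identical and above all mock arrays, with a log2 difference of 0.92 (SE 0.11, limma adjusted p = 0.00722). EIF3L had 13.07 and 13.56 in the pull-down, against 12.09, 12.43 and 12.62 in the mock. The groups did not overlap, but each varied by about as much as the gap between them, and the log2 difference of 0.93 (SE 0.22) had an adjusted p of 0.0348 by limma. That call ended without pull-down array 1 (0.0557), 2 (0.138), mock array 1 (0.0764) or 2 (0.0940).

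EIF3A, the largest scaffold subunit, and EIF3K, a small peripheral one, were lower. EIF3A had 10.44 and 9.96 in the pull-down, against 10.75, 10.90 and 10.73 in the mock. Pull-down array 2 was the lowest value, and the log2 difference was -0.59 (SE 0.16, limma adjusted p = 0.0488), but -0.35 without pull-down array 2. EIF3K had 10.89 and 11.26 in the pull-down, against 11.51, 11.83 and 11.78 in the mock. Here pull-down array 1 was the lowest, and the log2 difference was -0.63 (SE 0.16, limma adjusted p = 0.0417). EIF3A lost its call without pull-down array 2 (0.0998), mock array 1 (0.115), 2 (0.134) or 3 (0.0868), and EIF3K without pull-down array 1 (0.154), 2 (0.0511), mock array 1 (0.0524), 2 (0.116) or 3 (0.0948). Both also lost it after quantile normalization, with limma adjusted p of 0.0583 and 0.0546, and EIF3A after 75th percentile centring (0.0532).

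EIF3M, EIF3F and EIF3D were not called on all arrays but depended on the array used. EIF3M had 10.33 and 11.36 in the pull-down, against 11.56, 11.52 and 11.62 in the mock. The mock arrays were close together while the pull-down arrays were 1.03 apart, and the log2 difference was -0.72 (SE 0.31, limma adjusted p = 0.147). It was called without pull-down array 2 (log2 difference -1.23, limma adjusted p = 0.0183), but its difference was -0.21 without pull-down array 1. Its second probe gave -0.83 with groups that did not overlap. EIF3M was also called as the mean of its probes (limma adjusted p = 0.0354), with genes of a mean under 9 left out (0.0101) and with an intensity trend (0.0484). EIF3F had 10.56 and 11.36 in the pull-down, against 11.37, 11.54 and 11.35 in the mock, so only pull-down array 1 lay apart. Its log2 difference was -0.46 (SE 0.25), and it was called without pull-down array 2 (log2 difference -0.86, limma adjusted p = 0.0272), with only -0.065 left without pull-down array 1. EIF3D, the subunit that can bind the cap itself, had a difference of 0.53 (SE 0.22) with pull-down arrays above all mock arrays, and was called without mock array 3 (log2 difference 0.72, limma adjusted p = 0.0279) and with genes of a mean under 9 left out (0.0375). EIF3G (-0.40, SE 0.26), EIF3B (-0.15, SE 0.14), EIF3I (-0.042, SE 0.17) and EIF3J (-0.027, SE 0.17) had overlapping groups, and the 2 further EIF3B probes gave 0.061 and 0.022.

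**Figure D2:**
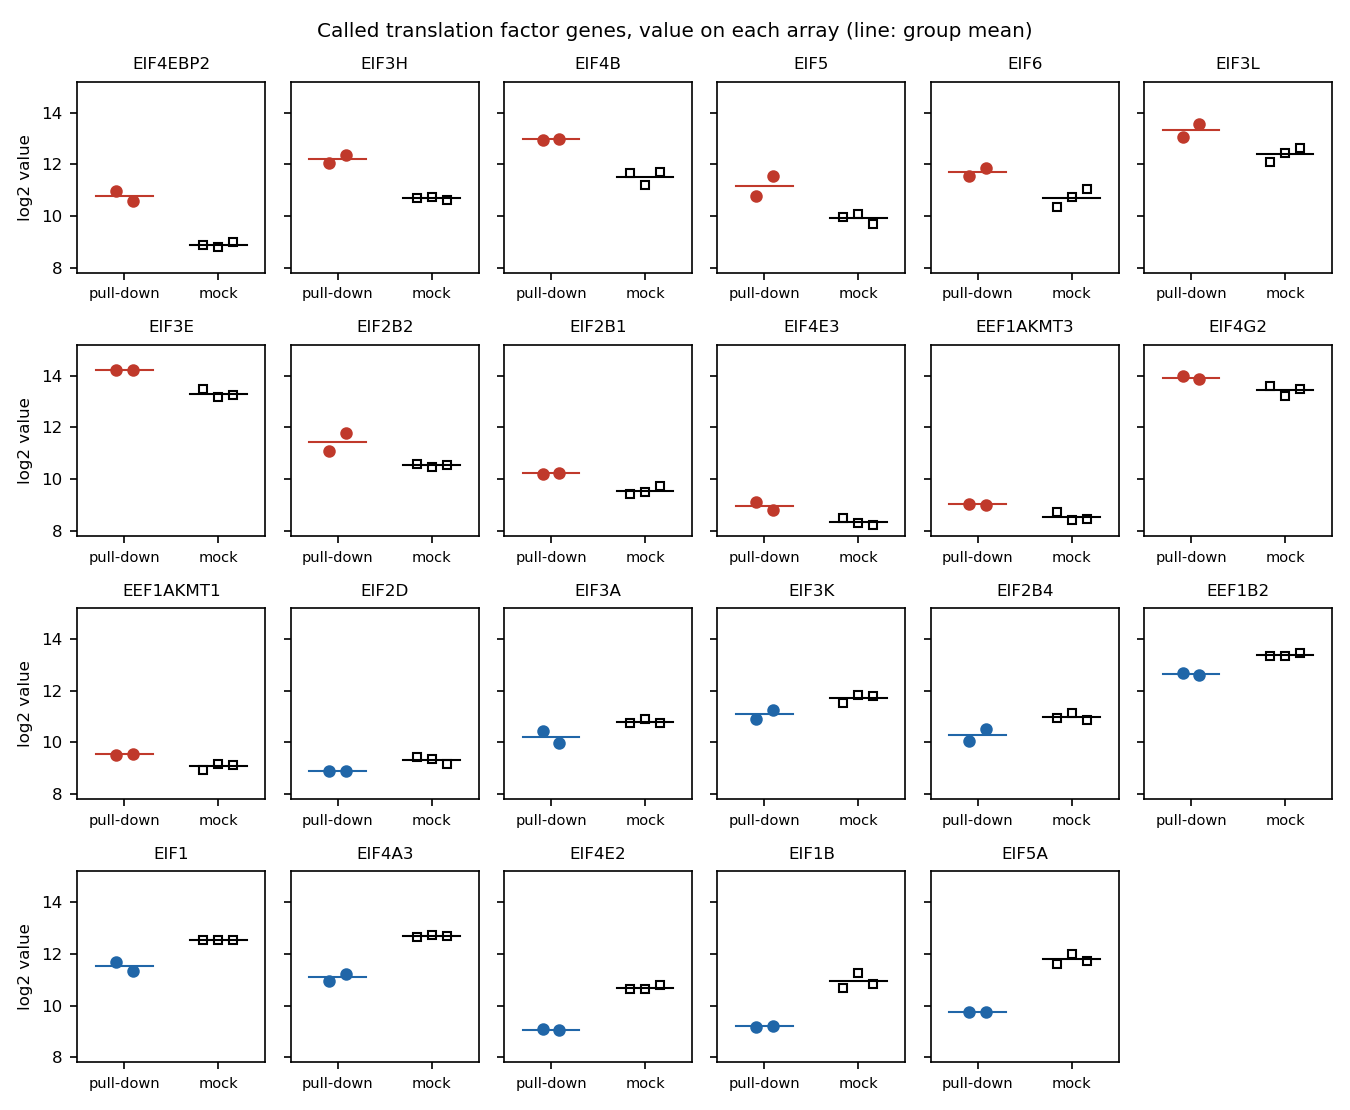
Deposited log2 value (vertical axis) on each array for the 23 called translation factor genes; filled points are the 2 pull-down arrays, open squares the 3 mock arrays, each in array order from left to right, and lines the group means. In every panel the pull-down points lie wholly above or wholly below the mock squares, and the gap is widest for EIF5A and EIF4EBP2.

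Around the cap, the repressor gene EIF4EBP2 was higher and the cap-binding gene EIF4E2 lower. EIF4EBP2 encodes a protein that blocks eIF4E until mTOR phosphorylates it, and had 10.96 and 10.58 in pull-down arrays 1 and 2, against 8.89, 8.81 and 8.97 in mock arrays 1, 2 and 3. All pull-down values were far above all mock values, and the difference of 1.88 (SE 0.14), or 3.67-fold, was the largest positive one of the set (limma adjusted p = 0.00313). EIF4E2, also known as 4EHP, binds caps without recruiting eIF4G and had 9.10 and 9.04 in pull-down arrays 1 and 2, against 10.63, 10.66 and 10.78 in mock arrays 1, 2 and 3. Both groups were tight and did not overlap, with a log2 difference of -1.61 (SE 0.074), or 3.06-fold lower (limma adjusted p = 0.00276). EIF4E3, a weaker cap-binding relative, was higher by 0.63 (SE 0.13) from a mock level near the lower limit, at 9.11 and 8.82 in the pull-down, against 8.50, 8.28 and 8.22 in the mock (limma adjusted p = 0.0260). It lost its call without pull-down array 1 (0.106), mock array 2 (0.0842) or 3 (0.0589).

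The canonical cap-binding gene EIF4E could not be compared, since its probe lay at the lower limit, with 8.15 and 8.05 in the pull-down, against 8.04, 8.06 and 8.05 in the mock. Near that limit differences are compressed. The same was true of EIF4EBP1, at a difference of -0.0023, and of the mock level of EIF4EBP3, whose difference of 0.18 (SE 0.059) was not called, but was with an intensity trend (limma adjusted p = 0.00181). EIF4ENIF1, which binds eIF4E and moves it to the nucleus and to P-bodies, had a difference of 0.37 (SE 0.18) with overlapping groups.

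The helicase genes of the eIF4A family differed from each other. EIF4A3, a core protein of the exon junction complex rather than an initiation factor, had 10.94 and 11.24 in pull-down arrays 1 and 2, against 12.67, 12.72 and 12.71 in mock arrays 1, 2 and 3. The mock arrays were nearly equal and both pull-down arrays far below them, a log2 difference of -1.61 (SE 0.10), or 3.06-fold lower (limma adjusted p = 0.00298). EIF4A1, the main initiation helicase, had 14.04 and 14.63 in the pull-down, against 14.26, 14.11 and 14.33 in the mock, and EIF4A2, its close paralogue, had 11.30 and 11.35 in the pull-down, against 11.33, 11.61 and 11.62 in the mock. Their groups overlapped, with differences of 0.099 (SE 0.20) and -0.19 (SE 0.11). The 95% intervals, -0.42 to 0.62 for EIF4A1 and -0.49 to 0.10 for EIF4A2, leave out a change of the size seen for EIF4A3. The differences between these helicases were not themselves tested.

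EIF4B, which stimulates the eIF4A helicase, was higher, while its relative EIF4H was not called. EIF4B had 12.94 and 12.99 in pull-down arrays 1 and 2, against 11.64, 11.19 and 11.69 in mock arrays 1, 2 and 3. The pull-down arrays were nearly equal and well above the highest mock array, with a log2 difference of 1.45 (SE 0.17), or 2.74-fold (limma adjusted p = 0.00698). EIF4H had 11.05 and 10.96 in the pull-down, against 11.23, 11.49 and 11.67 in the mock. Its pull-down arrays lay below all mock arrays, with a difference of -0.46 (SE 0.15, limma adjusted p = 0.0708), and the second probe gave -0.71. It was called without mock array 1 (log2 difference -0.57, limma adjusted p = 0.0370) and as the mean of its probes (-0.59, limma adjusted p = 0.0404).

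The scaffold gene EIF4G1 depended on the probe. Its brighter probe had 10.82 and 11.52 in the pull-down, against 11.40, 11.27 and 11.33 in the mock, with overlapping groups and a difference of -0.16 (SE 0.22), and its other probe had a difference of -0.98 with all pull-down arrays below the mock. Without pull-down array 2 the brighter probe was called at -0.51 (limma adjusted p = 0.0388), and its difference was positive (0.18) once pull-down array 1 was dropped. EIF4G2, a relative that lacks the eIF4E-binding region, had 13.97 and 13.89 in the pull-down, against 13.61, 13.23 and 13.50 in the mock. Its pull-down arrays were above all mock arrays and the difference was 0.49 (SE 0.13, limma adjusted p = 0.0485). The other 2 probes gave 0.83 and 0.58, but the mean of the probes was not called (0.63, limma adjusted p = 0.0614). The call also ended without pull-down array 1 (0.187), 2 (0.136), mock array 1 (0.0580), 2 (0.0557) or 3 (0.0844).

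**Figure D3:**
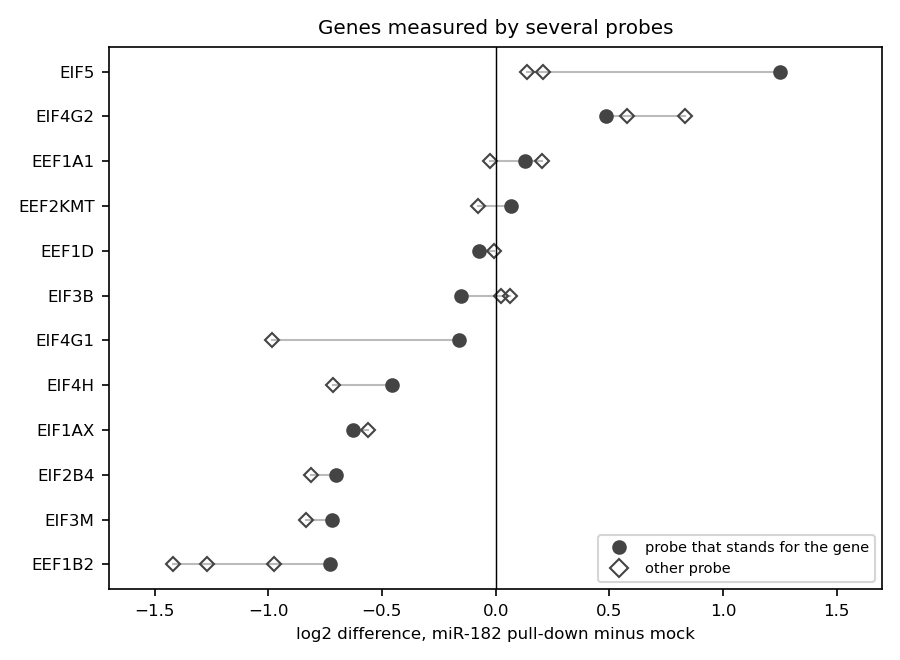
Log2 difference (pull-down minus mock, horizontal axis) at each probe of the 12 translation factor genes with several probes; filled circles are the probe that stands for the gene and open diamonds the others. The 4 EEF1B2 probes all lie below 0, while the EIF4G1 probes are -0.16 and -0.98 and the 2 dim EIF5 probes lie near 0.

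Among the genes whose symbols start with EIF5 or EIF6, EIF5 and EIF6 were higher and EIF5A was much lower. EIF5A, which carries the amino acid hypusine and helps ribosomes through difficult stretches and termination, had 9.74 and 9.74 in pull-down arrays 1 and 2, against 11.63, 12.00 and 11.73 in mock arrays 1, 2 and 3. The pull-down arrays were nearly equal, and the difference of -2.05 (SE 0.13), or 4.13-fold lower, was the largest of the set in either direction (limma adjusted p = 0.00298). EIF5, the activator of eIF2's GTPase, had 10.77 and 11.56 in the pull-down, against 9.95, 10.08 and 9.70 in the mock. All pull-down values exceeded the mock values, and the log2 difference was 1.25 (SE 0.27, limma adjusted p = 0.0265). Its 2 other probes were close to the lower limit and gave 0.21 and 0.14, both without overlap. EIF6, which keeps large subunits from joining too early, had 11.54 and 11.87 in the pull-down, against 10.35, 10.73 and 11.04 in the mock. The groups did not overlap and the log2 difference was 1.00 (SE 0.24), or 2.00-fold (limma adjusted p = 0.0331). EIF5 lost its call without pull-down array 2 (0.0536), mock array 1 (0.0780), 2 (0.0665) or 3 (0.0613), and EIF6 without pull-down array 1 (0.0853), 2 (0.148), mock array 1 (0.0556) or 2 (0.0939). EIF5B, the GTPase of subunit joining, had pull-down arrays below all mock arrays and a difference of -0.68 (SE 0.23) that was not called (limma adjusted p = 0.0777). It was called after median centring (0.0438), with genes of a mean under 9 left out (0.00878) and with an intensity trend in the variance (0.0246), again as adjusted p from limma. The difference of EIF5 was 0.53 as the mean of its probes.

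For elongation, EEF1B2, the nucleotide exchange subunit of the eEF1 complex, was lower at each of its 4 probes. The brightest had 12.70 and 12.62 in pull-down arrays 1 and 2, against 13.35, 13.35 and 13.46 in mock arrays 1, 2 and 3. Both groups were tight and did not overlap, and the log2 difference was -0.73 (SE 0.068), or 1.66-fold lower (limma adjusted p = 0.00456). The other probes gave -1.27, -1.42 and -0.97, all without overlap, and the mean of the probes -1.10. The partner subunits EEF1D and EEF1G had overlapping groups. EEF1D had 11.02 and 11.64 in the pull-down, against 11.27, 11.67 and 11.26 in the mock, a difference of -0.075 (SE 0.24), with -0.0056 at its other probe. EEF1G had 13.52 and 14.65 in the pull-down, against 13.35, 13.26 and 13.69 in the mock, so pull-down array 2 stood alone. Its difference of 0.65 (SE 0.37) was not called, and was called without pull-down array 1 (log2 difference 1.22, limma adjusted p = 0.0401). Its difference was 0.083 without pull-down array 2, and it was called with genes of a mean under 9 left out (limma adjusted p = 0.0250).

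EEF1A1, the carrier of aminoacyl-tRNA and one of the most abundant mRNAs of the cell, sat at the top of the scale, at 15.07 and 15.06 in the pull-down, against 15.04, 14.79 and 14.97 in the mock. All of its values were within 0.5 of the highest value of the array, so a difference may be compressed there. Its log2 difference was 0.13 (SE 0.092), with -0.025 and 0.20 at its other probes, and its sign turned after quantile normalization (-0.028). EEF1A1 has many processed pseudogenes whose transcripts its probes can share. EEF1A2, the paralogue of nerve and muscle, had 11.04 and 10.83 in the pull-down, against 10.90, 11.06 and 10.56 in the mock, with overlapping groups and a difference of 0.095 (SE 0.18). EEF2, the translocase, had 13.84 and 14.47 in the pull-down, against 13.54, 13.49 and 13.12 in the mock. Both pull-down arrays were above all mock arrays, but they were 0.64 apart, and the difference of 0.77 (SE 0.24) was not called (limma adjusted p = 0.0689). It was called without pull-down array 1 (log2 difference 1.09, limma adjusted p = 0.0499), and its difference was 0.45 without pull-down array 2. EEF2 was also called with genes of a mean under 9 left out (limma adjusted p = 0.00392) and with an intensity trend (0.0123). Both settings called a larger share of genes in general.

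The enzymes that act on elongation factors gave small differences. The lysine methyltransferase genes of eEF1A were higher, EEF1AKMT3 by 0.49 (SE 0.11) and EEF1AKMT1 by 0.46 (SE 0.088, limma adjusted p = 0.0290 and 0.0193). EEF1AKMT3 lost its call without pull-down array 1 (0.125), 2 (0.0978), mock array 2 (0.0796) or 3 (0.0690), and EEF1AKMT1 without pull-down array 1 (0.0825) or 2 (0.0836) or with genes of a mean under 9 left out (0.0526). EEF2K, the kinase that switches eEF2 off, had a difference of -0.018 (SE 0.093), and EEF2KMT, which methylates eEF2, one of 0.068 (SE 0.077). Both had overlapping groups. ETF1, the release factor that reads stop codons, had 12.13 and 11.06 in the pull-down, against 12.00, 12.15 and 11.90 in the mock. Only pull-down array 2 lay apart, the difference was -0.42 (SE 0.33), and it was called without pull-down array 1 (log2 difference -0.95, limma adjusted p = 0.0300), but was 0.12 without pull-down array 2. GSPT2, a GTPase partner of ETF1, had 8.30 and 8.51 in the pull-down, against 8.51, 8.43 and 8.22 in the mock, with overlapping groups and a difference of 0.019 (SE 0.12). GSPT1, EIF4G3 and EIF5A2 were not analysed here.

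Several members differed more between the pull-down arrays than between the groups. In 12 of 54 (22.2%) those arrays were over 0.5 apart, against 8.39% of all genes, and, among genes with a mean of at least 9, in 12 of 44 (27.3%) against 15.9%. Pull-down array 1 gave the higher value in 18 of the 54 (33.3%), against 53.3% of all genes. The widest gaps were those of EEF1G (1.13), ETF1 (1.07) and EIF3M (1.03). Both pull-down arrays lay above all mock arrays for 18 members and below them for 14, where 35.0% and 30.1% of all genes did. With 2 arrays against 3, an exact permutation test of 1 gene cannot go below p = 0.1.

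**Figure D4:**
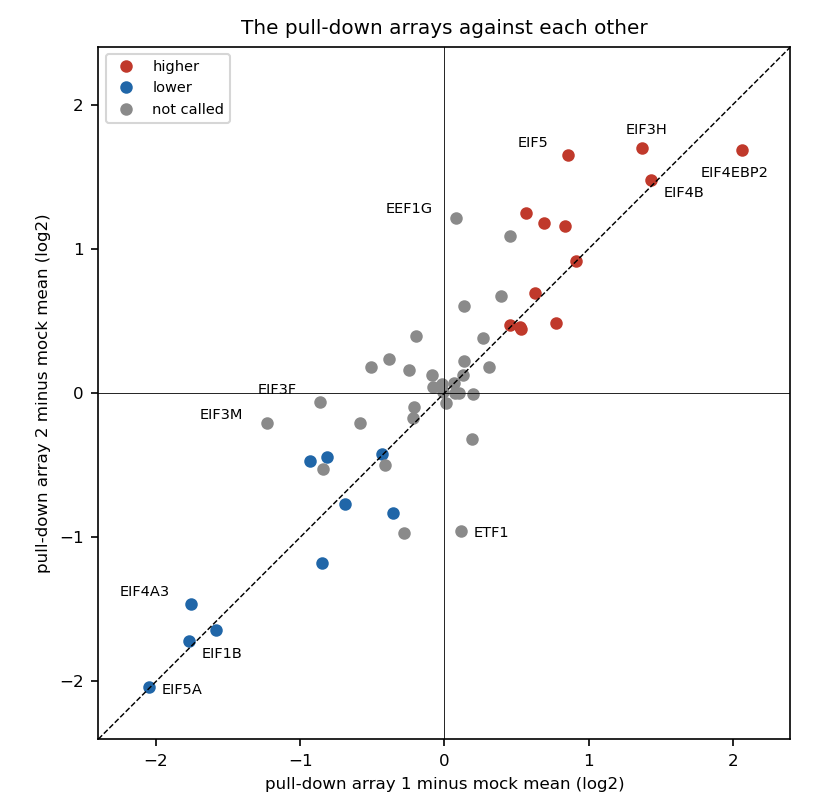
Each translation factor gene's value on pull-down array 1 (horizontal axis) and pull-down array 2 (vertical axis), both as log2 difference from the mock mean; the dashed line marks equal values. EIF5A and EIF4B lie on the line, while EEF1G, EIF3M and ETF1 lie far from it, with array gaps of 1.13, 1.03 and 1.07.

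Factors known for their TOP mRNAs included both higher and lower genes. Of the 10 measured, EIF3H, EIF4B and EIF3E were higher, EEF1B2 was lower, and EEF2, EEF1G, EEF1A1, EEF1A2, EEF1D and EIF3F were not called. For so few genes these counts lie near the 20.2% higher and 15.0% lower of all genes, and the median log2 difference was 0.39 beside 0.017 for all genes. The start windows show the tract for EEF1B2 and EIF4B alike, but not for EEF1G at its 1 listed start. Among the 12 members with a tract at a RefSeq start, EIF4B was higher, EEF1B2, EIF3K and EIF2D were lower and 8 were not called. Starts of EIF3E, EIF3H, EEF1D and EEF1A2 were not examined here, and for EEF1B2 only 1 of its 2 listed starts has the tract.

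Proteins that act on or beside these factors were called at shares near those of all genes. Of 40 measured genes in a list of 50 partners and regulators, 10 were higher and 6 lower, where 20.2% and 15.0% of all genes were, with a median log2 difference of 0.11 beside 0.017 over all genes. EIF2AK2, the RNA-activated eIF2 kinase also known as PKR, had 12.04 and 11.12 in the pull-down, against 9.77, 9.51 and 9.59 in the mock and a log2 difference of 1.96 (SE 0.29, limma adjusted p = 0.0108). EIF2AK1, the heme-regulated eIF2 kinase, was higher by 1.19 (SE 0.18), and ATF4, the transcription factor whose translation rises when eIF2 is phosphorylated, by 1.49 (SE 0.13). The eIF2 kinase genes EIF2AK4 and EIF2AK3 were not called. EIF2AK4, which encodes GCN2, had a difference of 0.053 (SE 0.12), and EIF2AK3 lay at the lower limit on all 5 arrays. LTN1, a ubiquitin ligase of stalled ribosomes, was higher by 1.57 (SE 0.21), or by 0.95 as the mean of its probes. Lower genes were led by GCN1, an activator of the eIF2 kinase GCN2, with 9.40 and 9.37 in the pull-down, against 10.85, 10.97 and 10.81 in the mock and a log2 difference of -1.50 (SE 0.074, limma adjusted p = 0.00276). TPT1 (-1.02, SE 0.14), a growth-related gene with a TOP mRNA, the mTOR complex gene MLST8 (-0.93, SE 0.19) and the poly(A)-binding protein gene PABPC1 (-0.57, SE 0.14) followed. EIF2AK1 lost its call without pull-down array 1 (0.0647), and MLST8 without pull-down array 1 (0.0813), 2 (0.108) or mock array 2 (0.0659). PABPC1 was at -0.96 as the mean of its probes, and lost its call without pull-down array 1 (0.130), 2 (0.146), mock array 1 (0.10) or 3 (0.0825). The list had 3 lower members when mock array 1 was left out, a fit in which the lower share over all genes was 9.99%.

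The separate factors of mitochondrial translation gave 0 higher and 5 lower of 12 measured genes by limma, where 20.2% of all genes were higher and 15.0% lower. Their median log2 difference was -0.34, beside 0.017 over all genes. Lower were the ribosome rescue factor MRPL58 (-1.23, SE 0.21), the initiation factor MTIF3 (-0.72, SE 0.19), the translational activator TACO1 (-0.68, SE 0.14), the elongation factor GFM1 (-0.54, SE 0.096) and TSFM (-0.38, SE 0.091), which recharges the elongation factor TUFM. TUFM itself was not called (-0.44, SE 0.31). At an unadjusted p under 0.05 by limma, 0 had a positive difference. These calls rest on all arrays: 0 were lower with pull-down array 1 left out, 1 with pull-down array 2, 2 with mock array 1, and 3 with mock array 2 or 3. Without mock array 1, MTRF1L, a release factor of mitochondria, was higher by 0.68 (limma adjusted p = 0.0298), as picked out after its values were seen.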

How the data were processed

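RNA was measured on 5 Illumina expression BeadArrays. The values used are the log2 values the authors deposited, 11184 probes with medians of 8.72 to 8.81 per array; the log base was inferred from the range of about 8 to 15.2. Per the submitters' processing notes lumi 2.2.1 was used, in a role not stated. How background, normalization and probe filtering were handled is not given in the sources used here. A table of unnormalized signals was not used, because its 10 value columns match no sample label. On each array 14.9% to 26.7% of probes were no more than 0.1 above the lowest value. Across probes, Pearson's r was 0.978 for the pull-down pair, 0.980 to 0.987 for mock pairs and 0.885 to 0.904 between groups.

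Probes were named through the platform annotation, with symbols checked by Entrez identifier (10039 of 10040 matched). A model was fitted to each of 8127 genes in limma 3.58.1 under R 4.3.3 (group as the only term, 3 residual and 1.61 prior degrees of freedom), 2-sided, with p-values adjusted by Benjamini-Hochberg over all genes and called at under 0.05. The fit was tested on simulated data. Alternatives were 3 scalings, the mean of all probes, a filter at a mean of 9, an intensity trend with a robust prior, a replicate block and each array left out. The members, lists and rule for named genes were chosen with earlier results of these data known. Full array values are given for called members with the 6 largest differences each way, called eIF2 and eIF3 genes, main elongation and release factors, TOP genes and paralogue pairs, and differences for the others. From each other list the called genes with the 4 largest differences each way are named. EIF2AK3, EIF2AK4, TSFM and TUFM are named besides, chosen after their values were seen. The number of arrays limits the precision.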

Additional observations from a re-analysis of the deposited data

How the results depend on the processing

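Across the 12 alternatives, 511 of the values for single members kept their direction and side of the threshold, 61 lost a call, 25 gained one and 41 changed sign, none of the last being called. The members' median of 0.021 was -0.020 after median centring and -0.027 after quantile normalization. It was -0.053 with genes of a mean under 9 left out, -0.014 with the replicate block, and -0.014 to 0.068 with 1 array left out. The median over all genes was -0.024 after median centring, -0.0026 after quantile normalization, -0.056 with that filter and 0.015 with the replicate block. With the filter 954 of all genes were higher of 3831 tested, and 1 mitochondrial factor higher and 3 lower; with the mean of all probes 1 was higher (MTRF1L with the filter, MRRF with the mean). With 1 array left out, 958 to 1379 genes were higher and 638 to 1205 lower over all genes, 5 to 9 members higher and 6 to 10 lower, 2 to 6 partners lower, and 0 to 1 mitochondrial factors higher and 0 to 3 lower; each fit then had 2 residual degrees of freedom, and without a pull-down array the lone one is assumed to vary like the mock. Groups share replicate numbers, and arrays of pair 1 and of pair 2 deviated with r = 0.036 and 0.12. With 2 pull-down arrays their deviations mirror each other, so this check cannot settle whether the numbers pair the arrays. The main fit did not treat them as pairs. The replicate block gave 10 higher and 9 lower members, against 15.9% and 13.9% of all genes. Under it EEF1AKMT1, EEF1AKMT3, EIF2B2, EIF3A and EIF4G2 lost their calls (limma adjusted p from 0.0523 to 0.105). EIF3D gained one (limma adjusted p = 0.0278). Sign changes were EEF1A1 (-0.028), EEF2KMT (-0.014), EIF2B5 (-0.025) and GSPT2 (-0.083) under quantile normalization; EEF1A2 (-0.046), EIF2S1 (-0.066), EIF2B5 (-0.064), GSPT2 (-0.065), EIF4EBP1 (0.018), EIF3J (0.082) and EIF3I (0.065) with the replicate block; EEF2KMT (-0.0052) under the mean of all probes of a gene; EIF2S1 (-0.0045), EIF2B5 (-0.018) and GSPT2 (-0.021) under median centring; EIF4EBP1 (0.016) under 75th percentile centring. With 1 array left out, differences that changed sign ran from -0.20 to 0.39 for EIF4A1, from -0.046 to 0.21 for EEF1A2, from -0.0028 to 0.10 for EIF4E, from -0.066 to 0.13 for EIF2S1, from -0.064 to 0.13 for EIF2B5, from -0.088 to 0.13 for GSPT2, from -0.013 to 0.018 for EIF4EBP1, from -0.078 to 0.047 for EEF2K, from -0.18 to 0.082 for EIF3J, from -0.25 to 0.16 for EIF3I, from -0.32 to 0.19 for EIF2S3, from -0.39 to 0.24 for EEF1D, from -0.51 to 0.18 for EIF4G1, from -0.95 to 0.12 for ETF1. The cause was not tested. Signal near the lower limit (EIF4E, EIF4EBP1, EIF4EBP3) or near the top (EEF1A1) limits what can be seen.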

Other observations

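The TOP tract was also looked up outside the translation factors, a comparison chosen after the members' values were seen and given as a description. Of 554 tested genes with the tract at a RefSeq start, 111 were higher in the pull-down and 95 (17.1%) lower, and their median log2 difference was 0.028. Of 6275 genes with a start and no tract, 20.5% were higher and 14.8% lower, around a median of 0.018. Cytosolic ribosomal protein genes were picked by name, as symbols that start with RPL or RPS and a digit. Among 39 such genes with the tract, 28 were lower and 2 higher (median -0.79). Among 26 without it, 9 were lower and 5 higher (median -0.13). The name rule also matches genes of S6 kinases, such as RPS6KB1 and RPS6KB2, so either group may hold genes that encode no ribosomal protein. The 515 tract genes outside this name rule had 13.0% lower and 21.2% higher.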
